A study of Mus musculus with 6 samples.

Results

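The genes described here are 4 that mark satellite cells (Pax7, Myf5, Myod1 and Cdh15) and 5 that mark the tendon lineage (Tnmd, Scx, Mkx, Fmod and Comp), picked by symbol from a table of 53715 genes. All 9 were found once each. RNA came from cells sorted as pericytes (CD146-positive, negative for CD45 and CD31) from the gastrocnemius-soleus of wild-type male C57BL/6J mice aged 14 weeks. In 3 mice electrical stimulation had driven the crural muscles, which move the foot, through 40 contractions, 20 eccentric and 20 concentric, within about 10 minutes, and tissue was taken 3 hours later (libraries S1, S2 and S3). The other 3 were sham mice without stimulation (libraries U1, U2 and U3). The labels give 3 male mice per group, and p-values measure the spread between these libraries.

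Satellite cells are the resident stem cells of skeletal muscle and lie between the fibre and its basement membrane. Pax7 marks them at rest, Myf5 and Myod1 commit them to the muscle lineage when activated, and Cdh15 (M-cadherin) joins them to the fibre and to each other. Tendon fibroblasts build the collagen tissue at the ends of the muscle. There the transcription factors Scx and Mkx drive tendon genes, Tnmd is a membrane glycoprotein typical of mature tendon, and Fmod and Comp organise collagen fibrils. Neither lineage is the cell type the sort was named for.

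The libraries differed in marker levels before any group comparison. They held between 17520338 and 23709220 estimated reads. Levels are given as CPM, the read count scaled to library depth with TMM factors. Mcam, which encodes CD146, stood at 24.3, 30.8 and 54.1 CPM in S1, S2 and S3 and at 39.1, 105 and 64.0 CPM in U1, U2 and U3. Ptprc (CD45) and Pecam1 (CD31), both excluded by the gate, ranged from 194 to 1035 CPM and from 384 to 1277 CPM over the 6 libraries. Rgs5, a defining pericyte gene, had 72.5, 92.8 and 187 CPM in S1, S2 and S3, against 172, 337 and 173 CPM in U1, U2 and U3. In bulk RNA, fewer cells of a type and less RNA per cell cannot be told apart.

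Upstream sequence is shown for Myf5, Tnmd and Fmod, whose windows lie outside the gene as GENCODE places it or reach only 28 bases into it. The E-box letters CANNTG were searched because Myod1, Myf5 and Scx are helix-loop-helix factors that bind them. The windows are the 250 bases before the RefSeq start of each gene on GRCm38.p6, written 5′ to 3′ on the gene's strand, with CANNTG in capitals. They lie at chr10:107486135-107486384 (minus strand) for Myf5, chrX:133850758-133851007 (plus strand) for Tnmd and chr1:134037004-134037253 (plus strand) for Fmod.
Myf5: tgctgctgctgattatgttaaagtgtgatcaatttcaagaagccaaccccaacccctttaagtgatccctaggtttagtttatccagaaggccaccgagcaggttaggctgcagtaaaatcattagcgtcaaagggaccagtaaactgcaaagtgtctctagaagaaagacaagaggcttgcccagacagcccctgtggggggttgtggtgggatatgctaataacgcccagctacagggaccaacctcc
Tnmd: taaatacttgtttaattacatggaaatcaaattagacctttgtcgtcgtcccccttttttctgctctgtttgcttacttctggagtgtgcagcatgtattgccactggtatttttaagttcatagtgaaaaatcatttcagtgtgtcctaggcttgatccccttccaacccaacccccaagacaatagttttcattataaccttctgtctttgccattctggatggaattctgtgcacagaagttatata
Fmod: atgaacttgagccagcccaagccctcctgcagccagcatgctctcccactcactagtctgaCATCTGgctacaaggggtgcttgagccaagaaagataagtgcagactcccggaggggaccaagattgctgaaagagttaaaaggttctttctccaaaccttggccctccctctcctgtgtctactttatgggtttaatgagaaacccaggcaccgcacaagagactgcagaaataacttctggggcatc
The Tnmd window reaches 28 bases into the gene as GENCODE places it. The letters CANNTG read the same class on both strands and overlap no other motif searched. Fmod held 1 match, 189 bases before its start, while the Myf5 and Tnmd windows held 0, as did the window of Pax7. The window of Cdh15 held 3. The windows of Pax7 and Cdh15 lie wholly within the genes as GENCODE places them, reaching 560 and 408 bases in from the start. Of 32851 such windows, 66.2% held at least 1 and 12.2% held 3 or more. In all, 5 members had an entry in the RefSeq table.

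Pax7, the paired-box regulator of quiescent satellite cells (ENSMUSG00000028736.13, chromosome 4, 139737062 to 139833528, GRCm38), had 0.316, 0.394 and 9.19 CPM in S1, S2 and S3, against 4.84, 2.38 and 2.05 CPM in U1, U2 and U3. S3 lay above every sham library, and S1 and S2 lay below every sham library, so the groups overlapped only through S3. The level in S3 was 29.1 times that in S1 and 1.90 times that in U1, the next highest library. From reads summed over transcripts, without the length correction of the gene table, the same ratios were 17.3 and 1.43, a comparison added after the values were seen. The reads numbered 8 in S1 (exact 95% Poisson interval 3.45 to 15.8), 11 in S2 (5.49 to 19.7) and 165 in S3 (141 to 192), against 115, 48 and 32 in U1, U2 and U3. The intervals cover counting error only, since the reads are not independent molecules. The group means were 3.30 ± 5.10 CPM in stimulated and 3.09 ± 1.53 CPM in sham libraries (SD, n = 3 each).

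Myf5, the earliest myogenic factor (ENSMUSG00000000435.1, chromosome 10, 107482908 to 107486134), followed the same pattern. It had 0.263, 0.246 and 3.40 CPM in S1, S2 and S3, against 1.82, 0.867 and 0.368 CPM in U1, U2 and U3. Here too S1 and S2 lay below every sham library and S3 above, on 5, 5 and 79 estimated reads in S1, S2 and S3. Myod1, the factor of activated myoblasts (ENSMUSG00000009471.4, chromosome 7, 46376474 to 46379099), had 0.369, 0.197 and 1.86 CPM in S1, S2 and S3, against 0.400, 0.758 and 0.210 CPM in U1, U2 and U3. Outside S3, with 39 reads, it had 4 to 14 reads per library, and it was the 1 member that fell under the filter on low counts.

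Cdh15 (ENSMUSG00000031962.6, chromosome 8, 122847966 to 122867397) had 0.263, 0.739 and 2.03 CPM in S1, S2 and S3, against 1.2, 0.758 and 0.315 CPM in U1, U2 and U3. S3 was again the highest library and S1 the lowest, with U3 near S1. All 4 satellite cell genes thus peaked in S3, which was the highest library for 10.9% of the 26559 genes tested and for 9.65% of those with a mean log2 CPM under 2. For Pax7, Myf5 and Cdh15 the highest sham library was U1 and the lowest U3. U1 was the highest of all 6 libraries for 18.4% of genes tested.

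**Figure D1:**
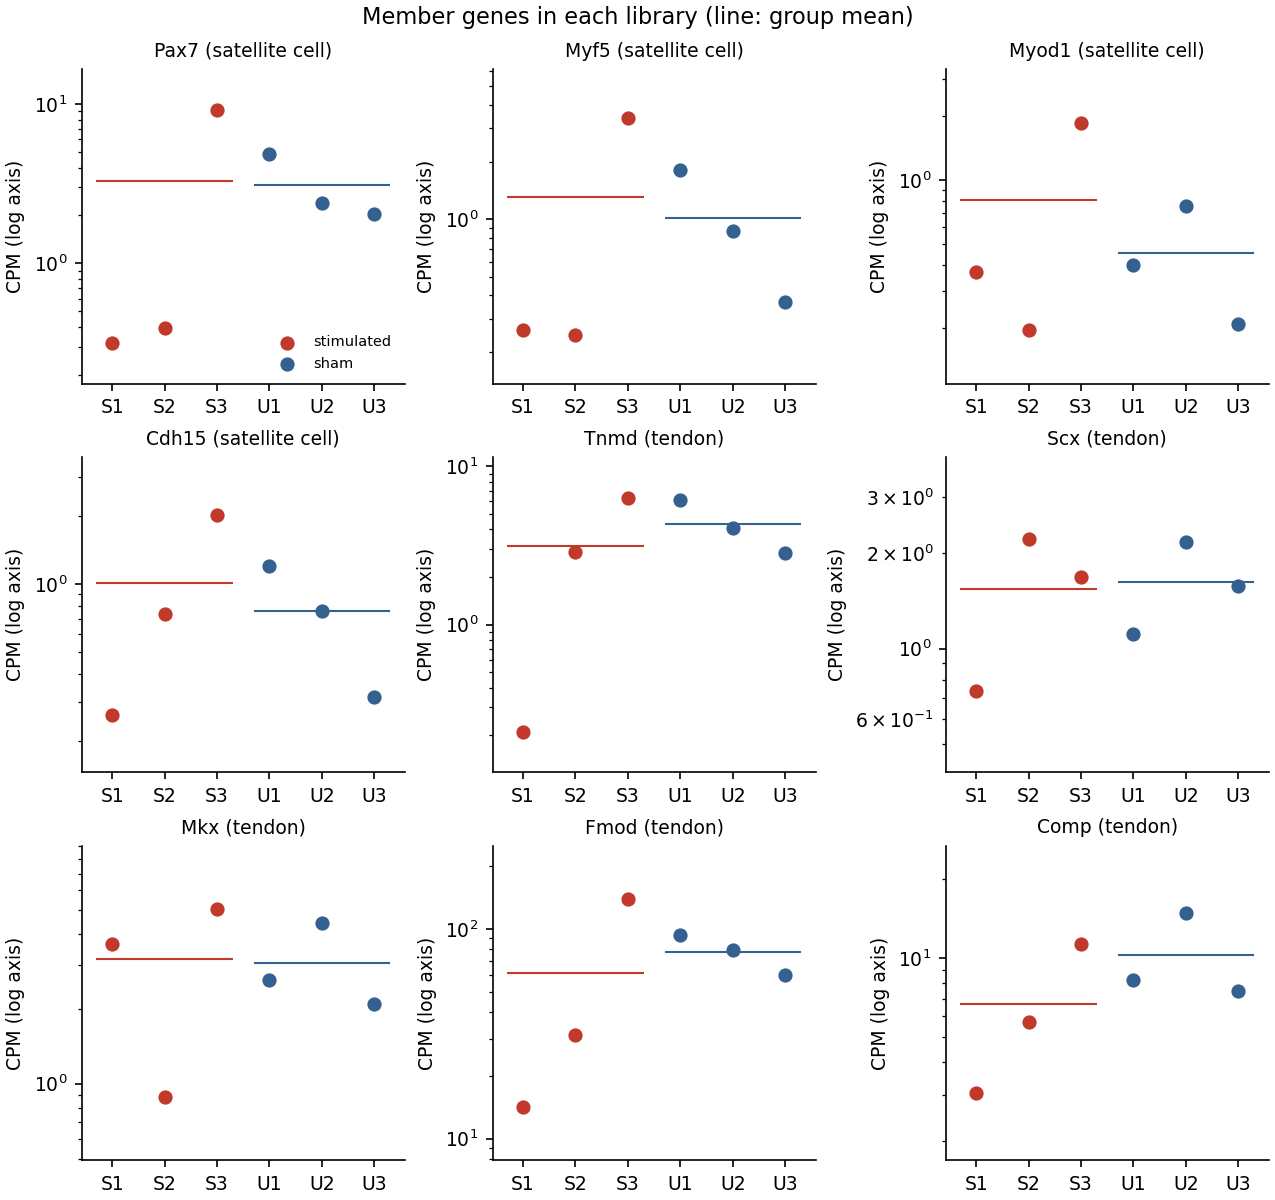
Each panel shows 1 member gene, with TMM-scaled CPM on a log axis for the stimulated libraries S1, S2 and S3 (red) and the sham libraries U1, U2 and U3 (blue); lines are group means (n = 3 each). Pax7 reached 9.19 CPM in S3 and stayed at 0.316 and 0.394 CPM in S1 and S2, with the sham libraries between.

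Among the tendon genes, Tnmd (ENSMUSG00000031250.8, chromosome X, 133850980 to 133865577) had 0.211, 2.86 and 6.32 CPM in S1, S2 and S3, against 6.09, 4.06 and 2.84 CPM in U1, U2 and U3. S1 stood alone at the low end with 4 reads (1.09 to 10.2), where the other 5 libraries had 52 to 149. S2 lay just above U3, the lowest sham library, and S3 was 1.04 times U1, the highest. Fmod, a small leucine-rich proteoglycan that binds collagen (ENSMUSG00000041559.7, chromosome 1, 134037254 to 134048277), was by far the most abundant member. It had 14.2, 31.1 and 139 CPM in S1, S2 and S3, against 93.7, 79.4 and 60.1 CPM in U1, U2 and U3. As with Pax7 and Myf5, S1 and S2 lay below every sham library and S3 above. With 274 to 3040 reads per library, counting error was small beside this spread: the intervals were 243 to 308 reads in S1 and 2933 to 3150 in S3.

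Comp, a pentameric matrix protein also made by cartilage (ENSMUSG00000031849.9, chromosome 8, 70373558 to 70382066), had 3.06, 5.72 and 11.3 CPM in S1, S2 and S3, against 8.26, 14.9 and 7.51 CPM in U1, U2 and U3. Here U2 was the highest library and S3 the second, and S1 and S2 were again below all sham libraries. U2 was the highest library for 25.8% of genes tested, the largest such share of the libraries counted (S2 had 14.1%).

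The transcription factors of the tendon lineage did not follow that order. Scx (ENSMUSG00000034161.8, chromosome 15, 76457452 to 76459458) had 0.738, 2.22 and 1.68 CPM in S1, S2 and S3, against 1.11, 2.166 and 1.58 CPM in U1, U2 and U3. It was highest in S2, with U2 beside it, and lowest in S1. Mkx (ENSMUSG00000061013.5, chromosome 18, 6934518 to 7004780) had 3.64, 0.887 and 5.04 CPM in S1, S2 and S3, against 2.62, 4.44 and 2.10 CPM in U1, U2 and U3. S2 was its lowest library, S1 lay above U1 and U3, and S3 stood only 1.13 times above U2.

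Transcript annotation set these 2 factors apart from the rest. For Pax7, Myf5, Myod1, Cdh15, Tnmd and Fmod every read was assigned to protein-coding transcripts, and for Comp 95.4 to 100% were. For Scx the coding transcript took 33.5, 29.7 and 39.1% of reads in S1, S2 and S3 and 15.4, 55.5 and 75.6% in U1, U2 and U3, and a retained-intron transcript took the rest, 60.6% of all Scx reads. Scx lies within Bop1, a gene on the opposite strand (chromosome 15, 76452989 to 76477277), although the 2 share 0 exonic bases. The kit keeps strand, but whether quantification used it is not stated in the labels, so reads of unspliced Bop1 and of Scx may not be told apart. For Mkx the coding transcript took 35.0% of all reads and a short processed transcript 48.8%. Coding Mkx reads alone numbered 8.2, 6.2 and 27.7 in S1, S2 and S3, against 37.6, 12.3 and 14.5 in U1, U2 and U3. On these reads S1 lay beside S2 rather than near the top, and U1 rather than S3 was the highest library.

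**Figure D2:**
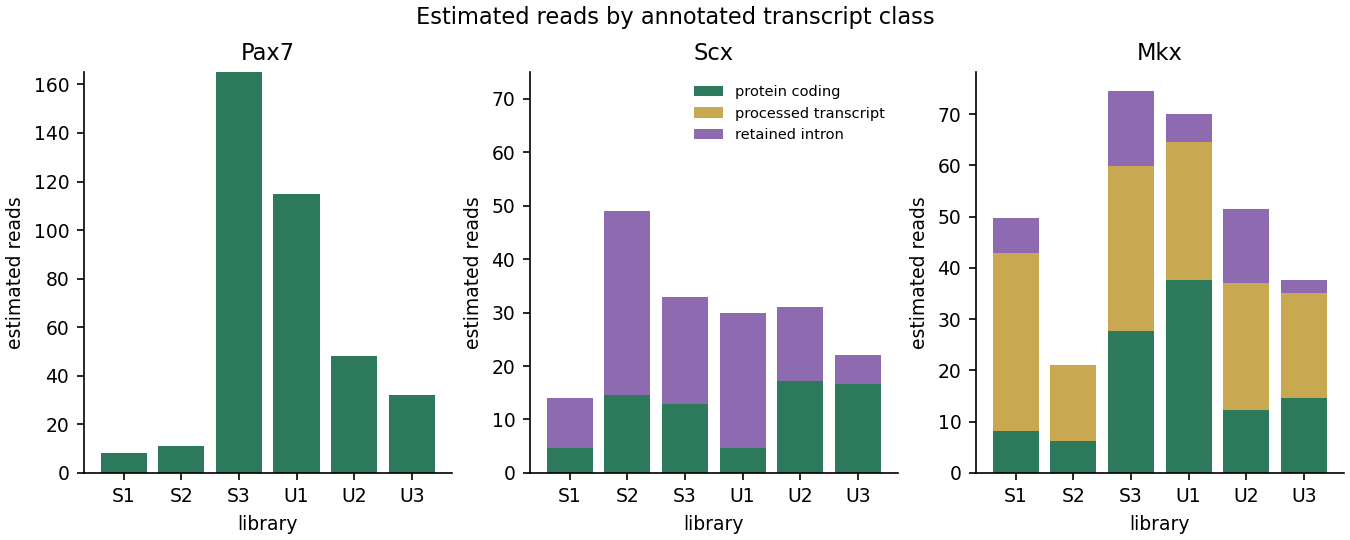
Stacked bars give the estimated reads of Pax7, Scx and Mkx in each library (stimulated S1 to S3, sham U1 to U3), coloured by the annotated class of the transcript they were assigned to. Pax7 reads all fell on coding transcripts, while 60.6% of Scx reads fell on a retained-intron transcript and 48.8% of Mkx reads on a processed transcript.

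Taking the 9 genes as a set, S3 was the highest library for 7, and S1 was the lowest for 6. Mkx is counted here on all its transcripts, since its coding reads alone were highest in U1. The lowest library was a stimulated one for all 9, S1 or S2. Among the 8 members tested, S3 was the highest and S1 or S2 the lowest for 6, a pattern found in 3.45% of all genes tested. S1 itself was the lowest for 6 of the 8, against 15.9% of all genes tested. This is not particular to the members, since S1 was also the lowest for 8 of 10 pericyte and 8 of 10 endothelial markers. S3 exceeded S1 by at least 2-fold for 7 of the 8, against 6.75% of all genes tested, and by at least 4-fold for 5 of the 8, against 1.6% of all genes tested and 2.91% of those with a mean log2 CPM under 2. The widest such ratios belonged to Tnmd (30, on 4 reads in S1) and Pax7 (29.1, on 8 reads in S1), and the narrowest to Scx (2.28) and Mkx (1.39). With reads summed over transcripts these counts were the same, except that 6 of the 8 were at least 2-fold higher, with Scx at 1.98. The highest stimulated library exceeded the lowest by at least 4-fold for 6 of the 8, where 8.41% of genes tested did so. Within sham the highest library was 1.56 times the lowest for Fmod and 4.96 times for Myf5, and it was at least 3 times the lowest for 2 of the 8, where 25.3% of genes tested were.

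Compared per length, as TMM-scaled CPM per kilobase of effective length, Fmod led with 14.8 ± 15.8 in stimulated and 19.2 ± 3.51 in sham libraries (SD, n = 3 each). Tnmd followed with 3.25 ± 3.08 in stimulated and 4.52 ± 1.53 in sham, and Comp with 2.34 ± 1.4 in stimulated and 3.64 ± 1.42 in sham (SD, n = 3 each). Mkx came next with 2.37 ± 1.5 in stimulated and 2.33 ± 0.919 in sham libraries (SD, n = 3 each). Its order against Comp and Tnmd changed between libraries. Below them lay Myf5 with a mean over all libraries of 0.860, Scx with 0.629, Pax7 with 0.470, Myod1 with 0.288 and Cdh15 with 0.147. The SD of Myf5, Pax7 and Myod1 over the stimulated libraries exceeded their mean. That spread is between libraries and does not judge the order of genes within a library, which was not tested. Myf5 lay above Pax7 in every library but U3 (0.294 against 0.321).

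Stimulated against sham, 0 of the 8 members tested passed edgeR's quasi-likelihood test at a Benjamini-Hochberg adjusted p of 0.05, where 0% of the 26559 genes tested passed. Their adjusted p ran from 0.919 for Comp to 0.997 for Pax7, and 0 had an unadjusted p under 0.05, which 4.41% of genes tested had as lower and 2.64% as higher genes. Limma voom also called 0 of the 8 members tested. DESeq2 called 0 too, but it gave no p at all for Pax7 and no adjusted p for Myf5 and Cdh15, so it could not call these. All 9 members had overlapping groups, where 5.89% of genes tested did not overlap and were lower and 6.12% did not overlap and were higher. The log2 fold changes of the satellite cell genes were 0.10 (SE 1.06) for Pax7, 0.36 (SE 1.01) for Myf5 and 0.42 (SE 0.79) for Cdh15. Without the filter on low counts, Myod1 had 0.93 (SE 0.83). Those of the tendon genes were -0.46 (SE 0.82) for Tnmd, -0.06 (SE 0.52) for Scx, 0.06 (SE 0.59) for Mkx, -0.34 (SE 0.68) for Fmod and -0.61 (SE 0.48) for Comp. An SE of 0.48 to 1.06 compares with a median of 0.40 over all genes tested. A missed threshold at this spread does not show equal levels.

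One library decided the satellite cell values. Without S3, the log2 fold change of Pax7 was -3.10 (SE 0.65, adjusted p = 0.563, edgeR's quasi-likelihood test), so it still did not pass. S3 held the highest Pax7 level, so leaving it out was bound to lower the value. That fit is therefore no test of stimulation. Leaving out any other library gave Pax7 between -0.10 and 0.68. Without S3, Myf5 had -1.97 and Cdh15 -0.58, and Myod1 had too few reads to be fitted. Fmod had -1.77 without S3, Tnmd -1.48 and Comp -1.21. S1 mattered on the other side: without it Tnmd had 0.13 and Fmod 0.18. The median over the satellite cell members tested was 0.36 with all libraries and -1.97 without S3, and the median over the 5 tendon members was -0.34 and -1.21, beside a median of -0.02 over all genes tested with all 6 libraries. Fitted values were below 0 for 4 of the 8 members and for 52% of genes tested.

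**Figure D3:**
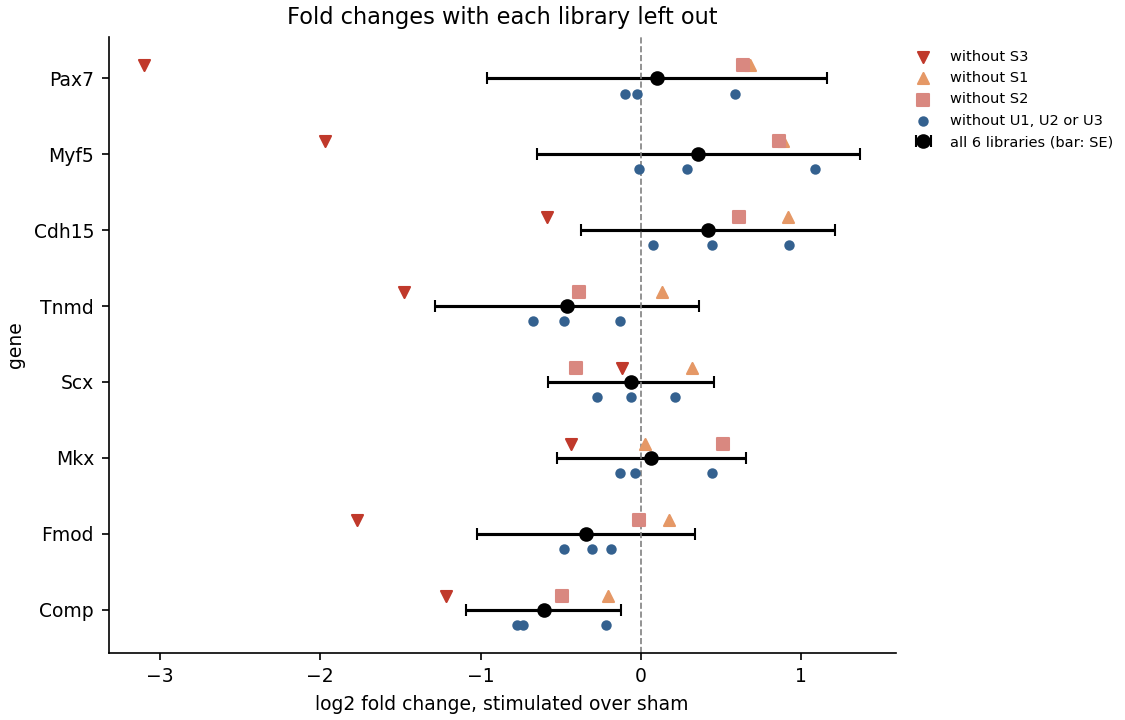
Black points are log2 fold changes, stimulated over sham, with their SE for the 8 members tested; coloured symbols are the same value with 1 library left out. Leaving out S3 moved Pax7 to -3.10 and Fmod to -1.77, while leaving out a sham library moved each member by less than its SE.

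Other genes used to mark satellite cells were read from a list of 23 (receptors, adhesion molecules and transcription factors), all of which were tested. There were 8 higher and 15 lower, 0 of them past the threshold, with a median log2 fold change of -0.06, and 4 had an unadjusted p under 0.05, 1 higher and 3 lower. Of all genes tested, 2.64% had such a p as higher and 4.41% as lower genes. Those with the smallest p are also expressed widely outside satellite cells. Cd34, a sialomucin of progenitor and endothelial cells, had -1.23 (SE 0.40, adjusted p = 0.592, edgeR) and Sdc3, a heparan sulphate proteoglycan, -1.25 (SE 0.47). Sdc4, another syndecan, had 0.88 (SE 0.36), Notch3, a Notch receptor that is on the pericyte list too, -0.93 (SE 0.40), and Erbb3, a neuregulin receptor, 1.02 (SE 0.50). The most abundant member was the chemokine receptor Cxcr4, with 82.0, 131 and 131 CPM in S1, S2 and S3 and 138, 44.7 and 235 CPM in U1, U2 and U3. For Dag1 (dystroglycan) the log2 fold change was -0.44 (SE 0.37), and for Fgfr1, a fibroblast growth factor receptor, it was -0.03 (SE 0.27).

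S3 was the highest library for 7 of these 23, against 10.9% of all genes tested. Among the 7, chosen here after their values were seen, were Calcr, the calcitonin receptor of quiescent satellite cells, and Megf10, an adhesion receptor of the same cells. Calcr had 0.738, 0.739 and 3.09 CPM in S1, S2 and S3, against 2.58, 1.08 and 0.525 CPM in U1, U2 and U3. Megf10 had 1.79, 1.04 and 5.44 CPM in S1, S2 and S3, against 2.31, 2.71 and 0.735 CPM in U1, U2 and U3. Both peaked in S3 and were lowest in U3, with S1 and S2 low as well. Most of the list peaked elsewhere: U1 was the highest library for 5 of the 23 and U2 for 8. Pax3, a relative of Pax7 also picked after its values were seen, went the other way within the stimulated libraries. It had 2.32, 1.68 and 1.11 CPM in S1, S2 and S3, against 2.53, 1.79 and 0.840 CPM in U1, U2 and U3.

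Genes of myogenic differentiation and fusion were read from a list of their own. Of 19 on the list 13 were tested, 3 higher and 10 lower, 0 past the threshold, with a median log2 fold change of -0.18. An unadjusted p under 0.05 was found for 2, both lower. Of all genes tested, 4.41% had such a p as lower and 2.64% as higher genes. S3 was the highest library for 1 of the 13, a share near the 10.9% of all genes tested. Cdkn1c, a cell cycle inhibitor, had -1.22 (SE 0.50), Ckb, the brain-type creatine kinase, -0.75 (SE 0.33), and Mef2c, a transcription factor of muscle and many other cells, -0.04 (SE 0.33). Dlk1 had -0.50 (SE 0.43), and the acetylcholine receptor subunits Chrna1 and Chrng had -0.59 (SE 0.51) and 0.47 (SE 0.49). Myl4 and Tnnt2, sarcomere genes of developing muscle, had -0.17 (SE 0.41) and -0.18 (SE 0.53). The 6 genes under the filter included Myog, the factor of terminal differentiation, which had 0.0527, 0.0986 and 0.0442 CPM in S1, S2 and S3, against 0.444, 0.217 and 0.105 CPM in U1, U2 and U3. These rest on 1, 2 and 1 reads in S1, S2 and S3, against 11, 4 and 2 in U1, U2 and U3, too few to order the libraries.

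The wider tendon list of 33 matrix genes and regulators was tested in full: 7 were higher and 26 lower, 0 past the threshold, with a median log2 fold change of -0.29. Without S1 17 were lower. Of the 33, 4 had an unadjusted p under 0.05, 1 higher and 3 lower, beside the 2.64 and 4.41% of all genes tested. The groups did not overlap for 4 of the 33, Ecm2 and Egr1 lower and Wif1 and Egr2 higher, the last 2 named after their values were seen. Of all genes tested, 5.89% were lower and 6.12% higher without overlap, so the share of 4 in 33 is near the background. Ecm2, a leucine-rich matrix protein, had 20.0, 24.9 and 48.4 CPM in S1, S2 and S3, against 56.1, 115 and 69.2 CPM in U1, U2 and U3, and a log2 fold change of -1.36 (SE 0.40, adjusted p = 0.543, edgeR). Egr1, a mechanically responsive immediate early factor, had 238, 282 and 277 CPM in S1, S2 and S3, against 421, 503 and 431 CPM in U1, U2 and U3 and a log2 fold change of -0.77 (SE 0.25). Tppp3, a marker of the tendon sheath, had -1.32 (SE 0.53) and the cyclooxygenase Ptgs1 -0.94 (SE 0.44). Tnc, a matrix glycoprotein of loaded tendon, had 0.86 (SE 0.37), with 46.5, 50.9 and 25.7 CPM in S1, S2 and S3 and 16.7, 17.0 and 34.1 CPM in U1, U2 and U3. S3 was here the lowest of the stimulated libraries.

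By library, 17 of these 33 tendon genes peaked in S3 and 12 in U2, and 19 were lowest in S1. Thbs4, a thrombospondin of the myotendinous junction, had 19.4, 40.3 and 183 CPM in S1, S2 and S3, against 73.9, 102 and 74.4 CPM in U1, U2 and U3, which places the libraries much as Fmod did. Dcn, the main small proteoglycan of tendon and fascia, had 97.0, 89.7 and 351 CPM in S1, S2 and S3, against 231, 250 and 187 CPM in U1, U2 and U3. Type I collagen peaked in U2 instead: Col1a1 had 122, 171 and 382 CPM in S1, S2 and S3 and 238, 417 and 411 CPM in U1, U2 and U3, and Col1a2 had a log2 fold change of -0.91 (SE 0.43). Dcn, Lum and Pdgfra are also on the list of fibro-adipogenic progenitor markers.

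Markers of other cells of muscle were read for each library beside the member genes. The mean log2 CPM of the 4 satellite cell members was -1.33, -1.14 and 1.77 in S1, S2 and S3, against 0.65, 0.20 and -0.74 in U1, U2 and U3. For the 5 tendon members it was 1.09, 2.05 and 3.30 in S1, S2 and S3, against 2.79, 3.13 and 2.45 in U1, U2 and U3. Fibro-adipogenic progenitor markers, 18 of 18 tested, stood at 4.87, 4.96 and 5.94 in S1, S2 and S3, against 5.6, 5.92 and 5.69 in U1, U2 and U3, an order of libraries close to that of the tendon members. Gsn and Col3a1 were the most abundant of them. The summed level of all 18 was 1429 to 3061 CPM in stimulated and 1947 to 3524 CPM in sham libraries.

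Myofibre markers stood at 2.16, 2.16 and 3.54 in S1, S2 and S3, against 1.75, 2.31 and 2.06 in U1, U2 and U3. S3 was the highest library for 14 of 18 myofibre genes and for 5 of 9 Schwann cell genes. Actn3, the fast-fibre actinin, had 2.00, 2.168 and 16.8 CPM in S1, S2 and S3, against 1.91, 2.166 and 1.63 CPM in U1, U2 and U3. Ttn, the most abundant gene of that list, did not peak in S3, with 110, 61.2 and 50.7 CPM in S1, S2 and S3 and 167, 206 and 43.0 CPM in U1, U2 and U3. The Schwann cell list stood at 2.29, 2.08 and 3.28 in S1, S2 and S3, against 2.60, 2.24 and 2.36 in U1, U2 and U3, and Mbp and Pmp22 were its most abundant genes. Sox10, the defining factor of that lineage, had 0.474, 0.641 and 4.77 CPM in S1, S2 and S3, against 1.07, 0.650 and 0.788 CPM in U1, U2 and U3. It was picked after its values were seen. S100b, Ngfr, Egr2 and Pmp22 did not peak in S3. Mbp had 44.8, 49.2 and 49.7 CPM in S1, S2 and S3, against 25.8, 17.0 and 38.8 CPM in U1, U2 and U3. None of the markers in these 3 lists was at 0 in any library. The summed level of myofibre genes was 152 to 314 CPM in stimulated and 138 to 304 CPM in sham libraries, and that of Schwann cell genes 106 to 157 CPM in stimulated and 91.4 to 109 CPM in sham. The part of these other cells in the member values was not tested.

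Vascular lists had their maximum elsewhere. Pericyte markers stood at 2.82, 3.28 and 4.05 in S1, S2 and S3, against 3.81, 4.86 and 3.99 in U1, U2 and U3, and U2 was the highest library for 9 of 10. Endothelial markers stood at 7.0, 7.18 and 7.60 in S1, S2 and S3, against 7.67, 9.04 and 8.33 in U1, U2 and U3, and U2 was the highest for 10 of 10. Leukocyte markers stood at 6.95, 6.54 and 6.66 in S1, S2 and S3, against 5.75, 4.88 and 6.13 in U1, U2 and U3. Within the stimulated libraries the pericyte and endothelial lists rose from S1 through S2 to S3, as the member means did. S1 was the lowest library for 8 of 10 pericyte, 8 of 10 endothelial and 0 of 10 leukocyte markers.

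**Figure D4:**
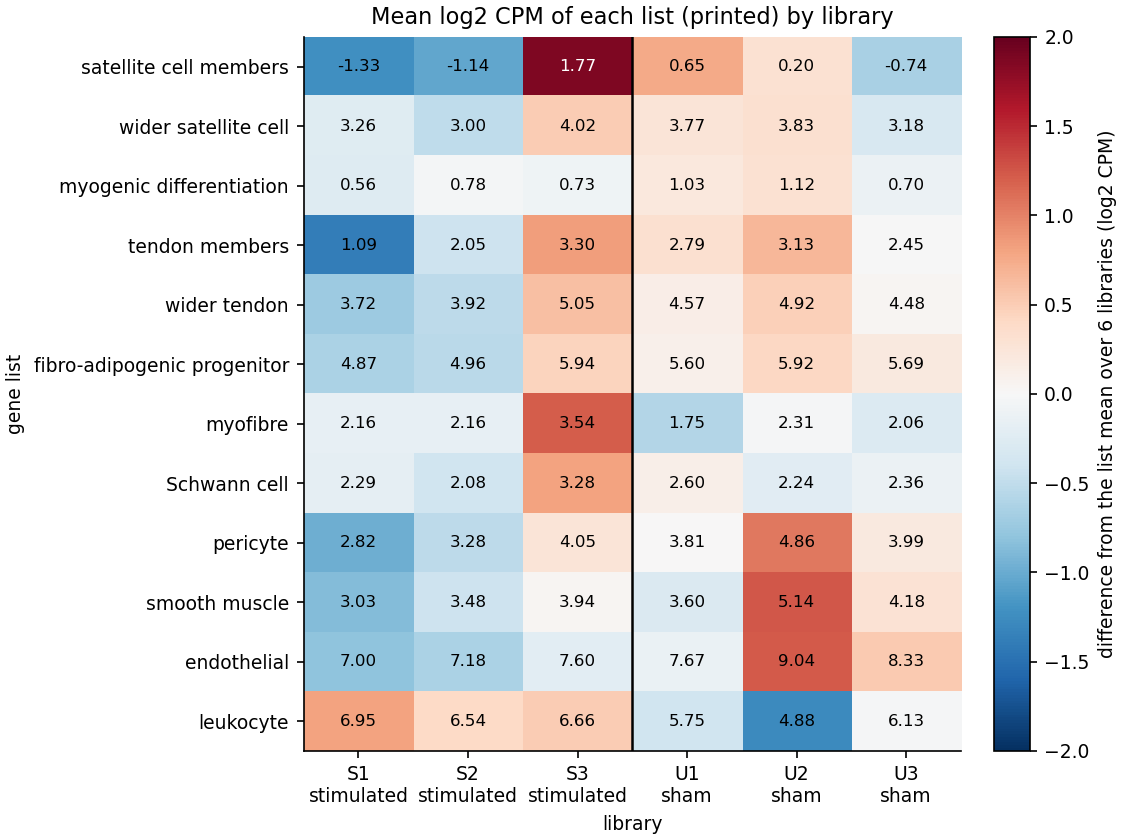
Rows are gene lists, columns the stimulated libraries S1 to S3 and the sham libraries U1 to U3; the printed number is the mean log2 CPM of the list and the colour its difference from the list's mean over the 6 libraries. Satellite cell members ran from -1.33 in S1 to 1.77 in S3, and myofibre genes reached 3.54 in S3, while endothelial genes peaked in U2 at 9.04.

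Genes whose levels over the 6 libraries ran most like the members were sought among 18234 genes whose log2 CPM averaged 1 or more. Likeness is Pearson's r of log2 CPM over 6 libraries that differ in depth and marker levels, and it is a description of these libraries. The closest of 18234 genes over 6 libraries can reach a high r by selection alone, so it shows no shared lineage. For the mean of the satellite cell members the closest were Lvrn (r = 0.99), Mfap5, a microfibril protein of fibroblasts (0.99), Hdlbp (0.98), Cilp2 (0.98) and Ctgf, a matricellular growth factor regulator (0.98). Mfap5 had 2.63, 3.20 and 15 CPM in S1, S2 and S3, against 7.51, 6.88 and 4.73 CPM in U1, U2 and U3. Ctgf had 10.6, 13.5 and 48.4 CPM in S1, S2 and S3, against 25.3, 27.95 and 16.3 CPM in U1, U2 and U3. Both were low in S1 and S2 and highest in S3.

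For the tendon members the closest were Pdgfra, the PDGF receptor that defines fibro-adipogenic progenitors (r = 0.99), Tenm3 (0.99), Kansl1l (0.99), Sptbn5 (0.99) and Glce, an enzyme of heparan sulphate synthesis (0.99). Pdgfra had 25.3, 33.95 and 57.2 CPM in S1, S2 and S3, against 44.5, 54.4 and 43.4 CPM in U1, U2 and U3. Its S3 to S1 ratio was thus far below that of Tnmd or Fmod, although the order of the libraries was alike. Tenm3 had 1.84, 3.06 and 7.51 CPM in S1, S2 and S3, against 6.00, 7.26 and 4.88 CPM in U1, U2 and U3.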

How the data were processed

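Total RNA libraries of 3 stimulated and 3 sham mice were made with a stranded low-input kit, per the labels' protocols. Tools named in the submitters' processing notes are Salmon 0.8.2, Trimmomatic 0.36, bcl2fastq 2.17.1.14, edgeR and R 3.5.1, and they name GRCm38. Neither order nor settings are stated. The deposited gene table holds the authors' estimated counts, and for each library they deposited a transcript table with TPM, estimated count, length and effective length as columns, per the file headers. For 14096 genes with TPM above 0.1 throughout, gene counts divided by the deposited TPM were constant within 1% in 100% of genes after scaling each library, so gene values follow length-corrected TPM and are not sums of reads.

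Estimated counts were rounded. The fit used filterByExpr (minimum count 10, minimum total 15; 26559 genes), TMM and edgeR's robust quasi-likelihood test (edgeR 4.0.16, R 4.3.3), adjusted by Benjamini-Hochberg over all genes tested; SE is the log2 fold change over the square root of F. Log2 CPM used a prior count of 2. With 3 libraries a group, the smallest two-sided p an exact permutation test allows is 0.1, and none was run. The fit was tested on simulated data. Replicates differed by a chi-square of 30 to 106 a gene, so none was a duplicate. Libraries were grouped by their titles. The members and lists were chosen with earlier results of these data known, so their counts are descriptions. From the wider lists the 5 genes of smallest p and the 5 of largest level were named. From marker lists the 2 of largest level were named, and 5 genes most like each profile. Calcr, Megf10, Pax3, Myog, Actn3, Sox10, Lum, Wif1, Egr2 and Bop1 were picked with their values in view. Coordinates are from GENCODE M21 (GRCm38), upstream sequences from RefSeq (GRCm38.p6). Alternatives were DESeq2 1.42.0, limma voom (limma 3.58.1), RLE size factors, a filter of 1 CPM in 3 libraries, no filter on low counts, the titles' replicate number as a block, omission of single libraries, and reads summed from transcripts.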

Additional observations from a re-analysis of the deposited data

How the results depend on the processing

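No member passed the threshold under the alternatives in which it was tested. Myod1 was fitted only without a filter and with S1, S2, U1 or U3 left out, and Myf5 and Cdh15 fell under the filter of 1 CPM in 3 libraries. DESeq2 gave no adjusted p for 6724 genes, Pax7, Myf5 and Cdh15 among them, and for Pax7 no unadjusted p either. The count of genes past it, 0 in the main analysis and with limma voom, was 227 with DESeq2, 109 without a filter on low counts, 3 with RLE size factors (Il1rn, Greb1l and Gm15927), 1 with reads summed from transcripts (Il1rn), and 0 to 1 with single libraries left out (B430305J03Rik without S3); these genes are named because they passed. The sign of Pax7 turned with limma voom (-1.29), with the replicate block (-1.44) and with summed reads (-0.18), that of Myf5 with voom (-0.37) and the replicate block (-0.54), that of Mkx with voom (-0.17), the replicate block (-0.090) and summed reads (-0.19), and that of Scx without a filter (0.0059) and with summed reads (0.16). The cause was not tested. With single libraries left out, log2 fold changes ran from -3.10 to 0.68 for Pax7, -1.97 to 1.09 for Myf5, -0.58 to 0.92 for Cdh15, -1.48 to 0.13 for Tnmd, -0.40 to 0.32 for Scx, -0.44 to 0.51 for Mkx and -1.77 to 0.18 for Fmod. The medians ran from -1.97 to 0.90 for satellite cell and from -1.21 to 0.13 for tendon members tested, and 17 to 28 of the wider tendon genes were lower. Comp stayed below 0 in all 13 alternatives. The replicate number of the titles gave correlations of same-numbered libraries' deviations of 0.32, -0.16 and 0.13. With 3 libraries a group these values do not show a pairing by that number and cannot exclude one. As a block the number left 0 genes past the threshold. Depth limits Myod1, Myf5 and Cdh15, which had 4 to 5 reads in their lowest libraries. It also limits Tnmd and Pax7 in S1, where they had 4 and 8 reads.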
